A study of Rattus norvegicus with 12 samples.

Results

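The genes described here are 40 chaperones, co-chaperones and stress regulators of the heat shock response and the unfolded protein response. They were taken from a list of gene names. The list applies no threshold on measured values, but it was drawn up with earlier results of these data known. All 40 were found among the 17310 genes of the files, and all 40 were among the 12856 genes with enough counts to be tested. By role, 18 act in the cytosol, nucleus or mitochondria, and 22 act in the endoplasmic reticulum (ER) or in the signalling that starts there.

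Their messenger RNA was measured by sequencing of hypothalamic tissue dissected around the paraventricular nucleus (PVH), the nucleus whose neurons start the hormonal stress response. All rats were male wild-type Wistar rats aged 12 weeks, and the 12 libraries formed 6 groups of 2. The groups were sham-adrenalectomised rats (sham), rats under high corticosterone for 12 days (high Cort), rats adrenalectomised for 7 days (ADX), adrenalectomised rats supplemented with corticosterone (supplemented ADX), and rats given acute corticosterone and killed after 1 h (1 h acute) or 3 h (3 h acute). The labels gave no dose or route, no length of the supplementation and no vehicle group. They also left unsaid whether the acutely treated rats still had adrenal glands and whether a library was made from 1 animal or from pooled animals, so the p values below measure the spread between these libraries, which may be technical.

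Chaperones bind unfolded proteins and help them to fold. In the cytosol, an excess of unfolded protein frees the transcription factor HSF1, which raises the transcription of heat shock protein genes; the glucocorticoid receptor itself is held ready for hormone by HSP90 and HSP70 complexes. In the ER, the sensors encoded by Ern1 (IRE1), Eif2ak3 (PERK) and Atf6 detect unfolded protein and act through Xbp1, Atf4 and the cleaved form of ATF6 on genes for ER chaperones, disulfide isomerases and the degradation machinery. Neurons that secrete peptide hormones, such as those of the PVH, fold their precursors in the ER.

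Promoter windows show the sequence motifs by which these responses are known to be wired. They are printed for members called below that held a motif, and for some members with the same motif that passed no test. RefSeq windows of build GRCr8, from 250 bases before to 50 after the annotated start, were matched by symbol for 31 of the 40 members. Hsp90aa1, Dnajb4, Cryab, Hsf1, Manf, Pdia3, Pdia6, Ern1 and Atf6 had no window and were not searched. The heat shock element was searched as 3 adjoining units of 5 bases, alternately NGAAN and NTTCN, starting with either. The ER stress element was searched as CCAAT, any 9 bases, then CCACG. Both motifs were searched on both strands, and capitals mark a match. Hspa5 (chr3:38452953-38453011, plus strand), Hsp90b1 (chr7:23012327-23012489, minus strand, with 2 matches), Calr (chr19:40213117-40213173, plus strand) and Canx (chr10:35158049-35158107, minus strand) held the ER stress element. Hsph1 (chr12:10427311-10427365, plus strand) and Hspe1 (chr9:64084241-64084300, plus strand) held the heat shock element. Each line reads 5′ to 3′ on the strand of its gene.
Hspa5: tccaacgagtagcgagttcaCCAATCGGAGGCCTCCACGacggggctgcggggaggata
Hsp90b1: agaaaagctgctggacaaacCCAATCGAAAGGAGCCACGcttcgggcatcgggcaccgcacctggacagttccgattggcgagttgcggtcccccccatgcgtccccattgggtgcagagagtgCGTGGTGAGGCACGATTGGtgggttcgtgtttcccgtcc
Calr: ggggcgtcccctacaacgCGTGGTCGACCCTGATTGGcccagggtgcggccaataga
Canx: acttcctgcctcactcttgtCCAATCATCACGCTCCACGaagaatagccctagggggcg
Hsph1: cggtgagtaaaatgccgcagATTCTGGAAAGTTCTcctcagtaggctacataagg
Hspe1: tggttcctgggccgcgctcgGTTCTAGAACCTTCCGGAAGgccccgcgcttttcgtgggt

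The heat shock element was found in the windows of 6 of 14 matched cytosolic and mitochondrial members (Chordc1, Hspa8, Hsph1, Dnaja1, Hspd1 and Hspe1) and of 0 of 17 matched ER members, against 0.795% of all 33469 windows in the table and 0.517% of the 12180 windows of genes in the files. The Hspd1 and Hspe1 genes lie head to head and share 1 stretch. The ER stress element was found for 6 of the 17 ER members (Hspa5, Hsp90b1, Dnajc3, Calr, Canx and Xbp1) and 0 of the 14 others, against 0.0657% of all windows and 0.14% of those of genes in the files. A core of the amino acid response element, searched as TGATG, any 1 base, then AA, occurred for Herpud1 and Trib3, against 3.98% of all windows and 2.43% of those of genes in the files. A glucocorticoid response element, searched as GNACA, any 3 bases, then TGTNC, occurred for 0 of 31 members, against 0.439% of all windows and 0.345% of those of genes in the files. Among members called below, Pdia4, Hyou1 and Atf4 had no ER stress element in their windows, and Dnajb1, Bag3 and Hspa4 had no heat shock element. A match is only a run of letters in these windows and does not show a bound factor. Only these exact patterns and windows were searched, so a member without a match may hold an element of another form or place.

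Library depth ran from 17674159 fragments (1 h acute replicate 2) to 36249006 fragments, and levels are given in CPM, counts scaled to TMM library sizes. Of 8 genes for the glucocorticoid receptor and its targets, 6 were higher in high Cort than in sham. The 8 summed to 656 to 697 CPM in high Cort and 521 to 541 in sham. ADX, at 526 to 538, lay within the range of sham. Their sums were 500 to 523 CPM in supplemented ADX, 545 to 550 at 1 h and 497 to 502 at 3 h of acute treatment. The dissections differed in neighbouring tissue: 12 markers of the adjoining thalamus, of 13 listed, summed to 2296 to 3012 CPM in sham, 2908 to 2986 in high Cort, 1695 to 1930.5 in ADX, 1820.4 to 1904 in supplemented ADX, 918 to 1533 at 1 h and 1428 to 1519 at 3 h of acute treatment, with none at 0. The lowest of these sums was in 1 h acute replicate 2. The 7 PVH genes (Sim1, Otp, Pou3f2, Crh, Avp, Oxt and Trh) were present in every library and summed to 532 to 736 CPM in sham, 422 to 466 in high Cort, 708 to 710.0 in ADX, 722 to 729.8 in supplemented ADX, 705 to 728 at 1 h and 794 to 950.3 at 3 h of acute treatment. Pituitary hormone genes were near 0. Each condition label of the files occurred in 2 groups, so 2 separate Cuffdiff runs were inferred. By the order of the samples, sham, high Cort and ADX were taken as 1 run and the other groups as the other (below, the acute run). The labels do not state this split. In any comparison across the runs, a difference between runs cannot be told apart from one between groups.

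Most members kept nearly the same level in all 12 libraries. Their median coefficient of variation over the libraries was 5.44%, against 7.32% over all genes tested, and 25 of the 40 lay below the median of all genes; genes were not matched for level. Per length, and within the run of sham, high Cort and ADX, the cytosolic HSP90 genes stood highest, with a mean of 1038 FPKM (fragments per transcript length and sequencing depth) for Hsp90ab1 and 567 FPKM for Hsp90aa1. Then came the ER lectin chaperone Canx at 273 FPKM, the constitutive cytosolic HSP70 Hspa8 at 262 FPKM, the ER HSP70 Hspa5 (BiP) at 260.0 FPKM and the ER HSP90 Hsp90b1 (GRP94) at 256 FPKM. The lowest were Hspb1, a small heat shock protein, at 1.96 FPKM, and Trib3, a pseudokinase induced late in ER stress, at 0.245 FPKM. In the other run the same genes took the first and last places, with 1089 FPKM for Hsp90ab1 and 0.201 FPKM for Trib3.

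**Figure D1:**
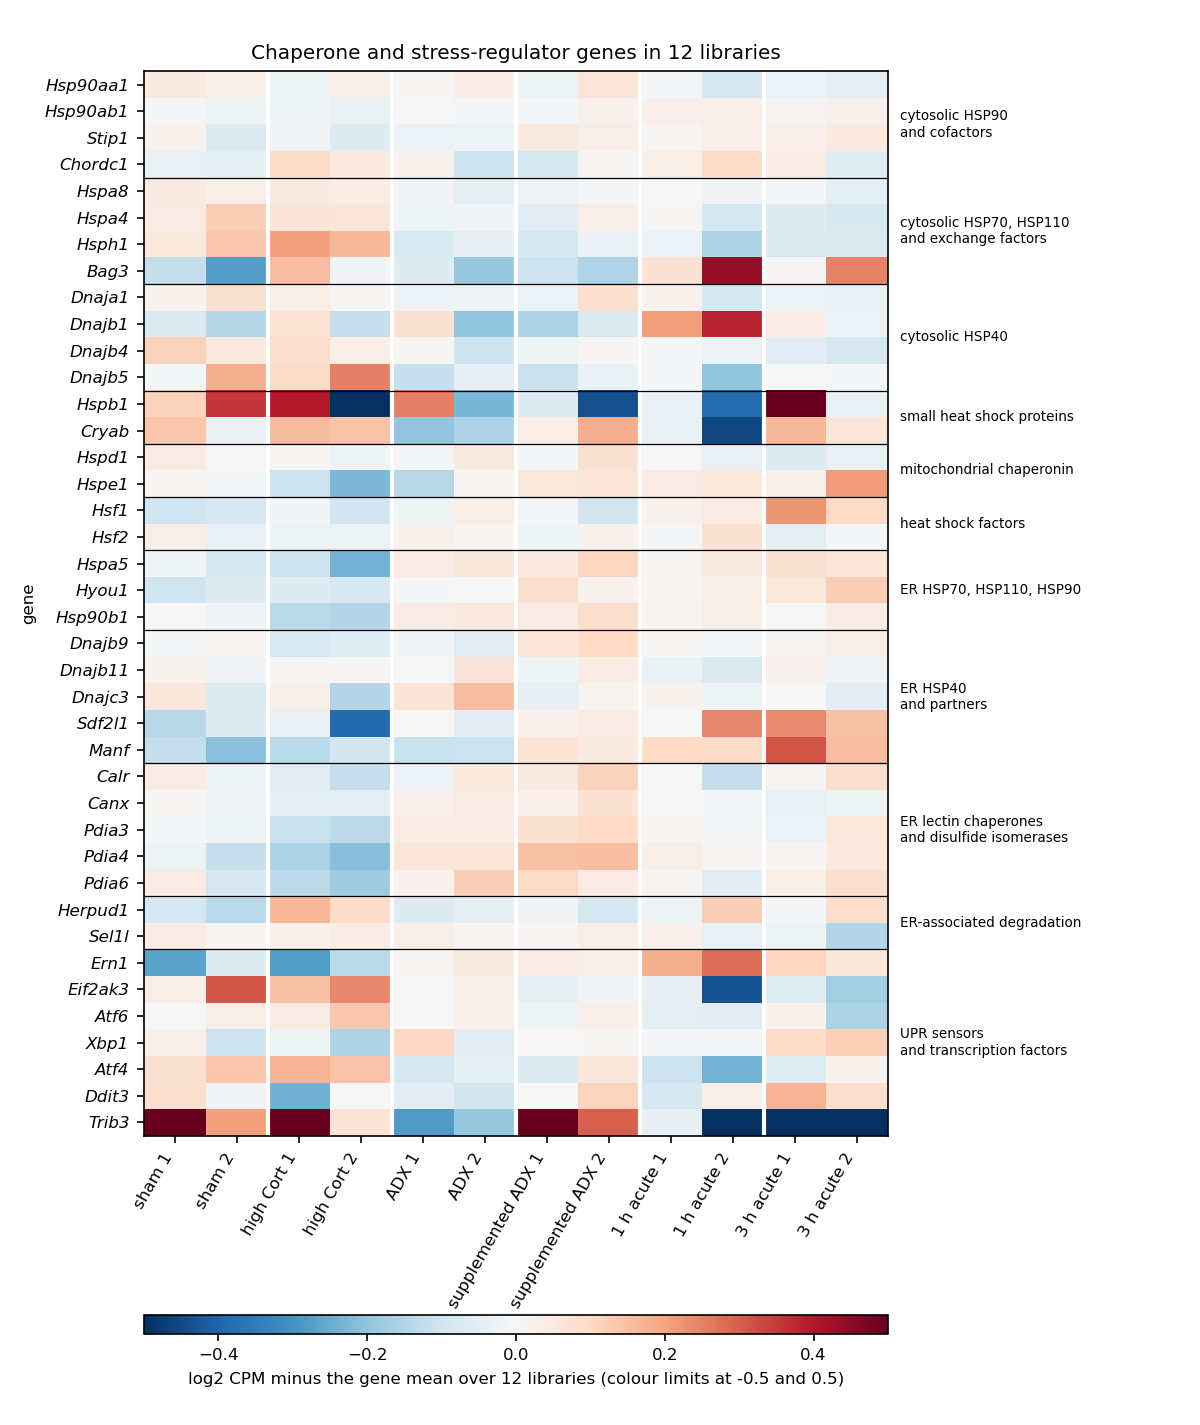
Log2 CPM of the 40 genes (rows, by role) in the 12 libraries (columns), each minus the gene's mean over the libraries, with colours limited at -0.5 and 0.5. Most rows are pale; the ER chaperones Hspa5, Hsp90b1, Pdia3, Pdia4 and Pdia6 are blue in both high Cort libraries, and the strongest colours sit in Trib3 and Hspb1, the genes with the lowest levels.

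A test of any difference among the 6 groups called 10 of the 40 members at an adjusted p under 0.05 (25% of them), where 12.9% of all genes tested were called. Of these, 9 belonged to the ER and its signalling: Pdia4 (adjusted p = 0.00326), Ern1 (0.00967), Atf4 (0.0107), Hspa5 (0.014), Hsp90b1 (0.0163), Manf (0.0155), Pdia3 (0.03), Hyou1 (0.0378) and Pdia6 (0.0416). The cytosolic member was Hsph1, an HSP110 that exchanges nucleotide on HSP70 (adjusted p = 0.00428). Among 18 cytosolic and mitochondrial members 1 was thus called, and among 22 ER members 9. Whether these shares differ was not tested, and they moved with the method. DESeq2 also called Bag3 and Dnajb1 of the cytosolic members and Eif2ak3 of the ER members. With library totals in place of TMM, edgeR also called Dnajb1 and Hsf1 of the cytosolic members and Calr of the ER members. Leaving out either high Cort library gave a count of 4, and leaving out 1 h acute replicate 1 gave 17.

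The widest contrast in corticosterone exposure was high Cort against ADX, and both groups were taken to come from 1 run. Folding enzymes of the ER were lower in high Cort: Hspa5, Hsp90b1, Pdia3, Pdia4 and Pdia6 fell. Hsph1 in the cytosol and Atf4 in the ER stress pathway were higher. These 7 of 40 members (17.5%) passed the test, where 5.77% of all genes did. The 2 higher members compare with 3.5% of all genes called higher, and the 5 lower members with 2.27% called lower. Over all members the median log2 fold change was -0.02, against 0.01 over all genes tested; over the 22 ER members it was -0.07 and over the 18 others 0.04.

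Pdia4, a disulfide isomerase that works in the BiP complex, stood at 86.2 and 81.2 CPM in sham, 78.7 and 75.9 in high Cort, 91.5 and 91.6 in ADX, 97.2 and 97.4 in supplemented ADX, and, after acute corticosterone, 89.7 and 88.4 at 1 h and 88.5 and 90.9 at 3 h. Both high Cort libraries lay below every other library, and the supplemented ADX libraries lay highest. The level in high Cort was 1.18-fold lower than in ADX (log2 fold change -0.24 ± 0.05, adjusted p = 0.00539). Hspa5, the HSP70 of the ER lumen and the chaperone that holds the stress sensors inactive, stood at 634 and 608 CPM in sham, 599 and 546 in high Cort, 661 and 669 in ADX, 666 and 694 in supplemented ADX, and, after acute corticosterone, 647 and 663 at 1 h and 679 and 670.1 at 3 h. Its 2 high Cort libraries were again the lowest of the 12, and it was 1.16-fold lower than in ADX (log2 fold change -0.22 ± 0.05, adjusted p = 0.0131). Hsp90b1, the HSP90 of the ER, stood at 689 and 683 CPM in sham, 628 and 624 in high Cort, 708 and 715 in ADX, 709.9 and 734 in supplemented ADX, and, after acute corticosterone, 697 and 704 at 1 h and 691 and 709 at 3 h. High Cort lay below all other libraries and 1.14-fold below ADX (log2 fold change -0.19 ± 0.04, adjusted p = 0.0086).

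Pdia3 (ERp57), the isomerase that acts on glycoproteins bound to calnexin and calreticulin, stood at 323 and 319 CPM in sham, 300.3 and 297 in high Cort, 333 and 333 in ADX, 342 and 348 in supplemented ADX, and, after acute corticosterone, 326 and 322 at 1 h and 318 and 337 at 3 h. It was 1.12-fold lower in high Cort than in ADX (log2 fold change -0.16 ± 0.04, adjusted p = 0.0296), and no other library reached down to the high Cort values. This call was kept by 5 of 11 alternatives. Pdia6, an isomerase that also acts on the sensor IRE1, stood at 181 and 166 CPM in sham, 161 and 155 in high Cort, 178 and 191 in ADX, 188 and 181 in supplemented ADX, and, after acute corticosterone, 177 and 169.5 at 1 h and 179 and 186 at 3 h. Its high Cort libraries were the lowest of the 12, with sham replicate 2 next, and the level was 1.17-fold lower than in ADX (log2 fold change -0.23 ± 0.05, adjusted p = 0.0192). The lectin partner of Pdia3, Calr (calreticulin), did not pass: it stood at 413 and 395 CPM in sham, 387 and 370.4 in high Cort, 394 and 417 in ADX, 414 and 436 in supplemented ADX, and, after acute corticosterone, 401 and 370.1 at 1 h and 406 and 426 at 3 h. Its high Cort libraries lay below the ADX libraries, but 1 h acute replicate 2 was as low (log2 fold change -0.10 ± 0.05, adjusted p = 0.279). Canx, the membrane-bound lectin, ranged from 1292 to 1405 CPM (log2 fold change -0.08 ± 0.04, adjusted p = 0.236).

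**Figure D2:**
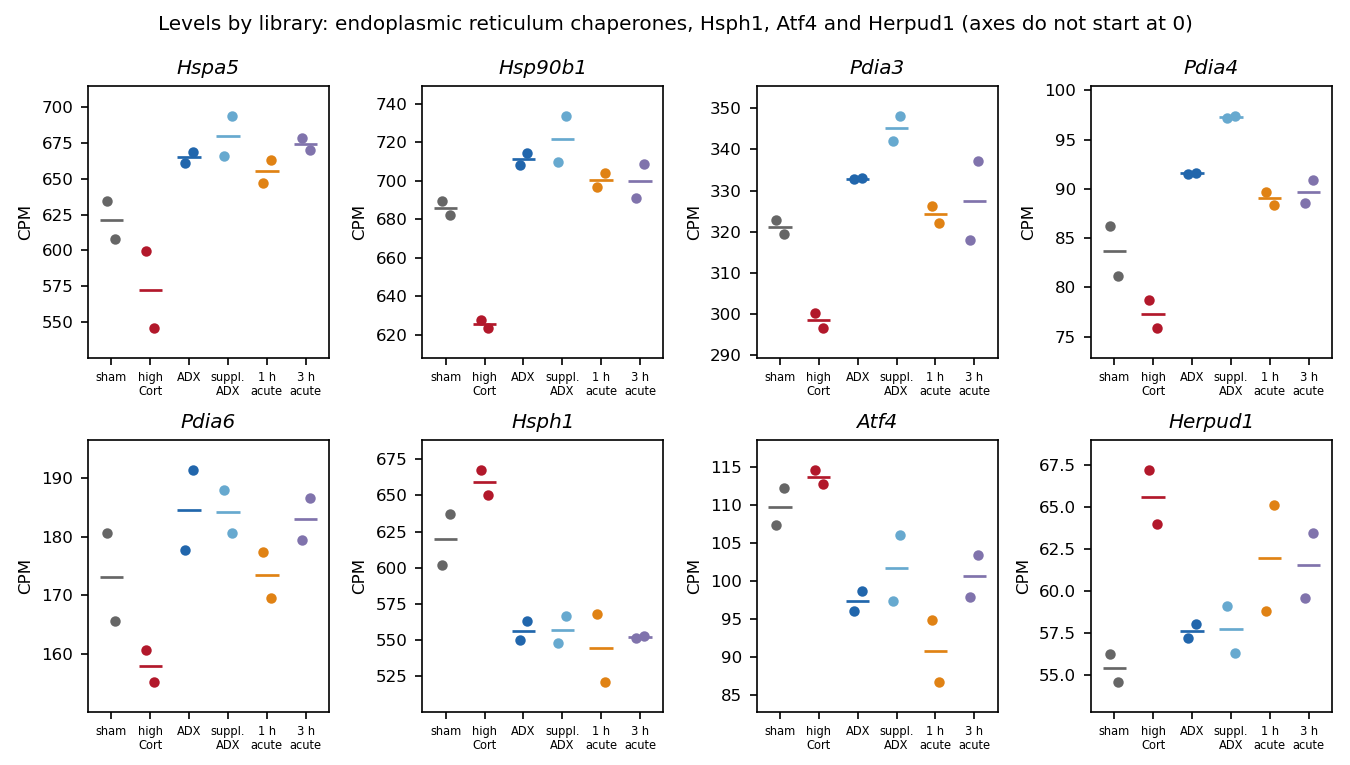
CPM of 8 genes in each of the 12 libraries (points) with the group mean (bar); axes do not start at 0. Hspa5, Hsp90b1, Pdia3, Pdia4 and Pdia6 have both high Cort libraries below all others, while Hsph1 and Atf4 have high Cort and sham above ADX, and Herpud1 has high Cort above sham and ADX.

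Hsph1 went the other way, at 602 and 637 CPM in sham, 668 and 651 in high Cort, 549.8 and 563 in ADX, 548 and 567 in supplemented ADX, and, after acute corticosterone, 568 and 521 at 1 h and 551 and 553 at 3 h. Sham and high Cort lay above all 8 libraries of the other groups. High Cort was 1.18-fold above ADX (log2 fold change 0.24 ± 0.05, adjusted p = 0.00623). Atf4, the transcription factor of the PERK arm and of the amino acid response, stood at 107 and 112 CPM in sham, 115 and 113 in high Cort, 96.0 and 98.7 in ADX, 97.3 and 106 in supplemented ADX, and, after acute corticosterone, 94.8 and 86.7 at 1 h and 97.9 and 103 at 3 h. High Cort and sham were again the highest groups, and high Cort was 1.17-fold above ADX (log2 fold change 0.22 ± 0.05, adjusted p = 0.0255). This call was kept by 5 of 11 alternatives. Ddit3 and Trib3, targets of ATF4 in the list, were not called in this comparison, and ATF4 protein was not measured. Ddit3, which encodes the transcription factor CHOP, stood at 12.4 and 11.6 CPM in sham, 9.91 and 11.7 in high Cort, 11.3 and 11.0 in ADX, 11.7 and 12.7 in supplemented ADX, and, after acute corticosterone, 11.1 and 12.0 at 1 h and 13.2 and 12.5 at 3 h, and its groups overlapped (log2 fold change -0.04 ± 0.10, adjusted p = 0.884). Trib3, at 3 to 14 fragments a library, stood at 0.431 and 0.293 CPM in sham, 0.364 and 0.266 in high Cort, 0.209 and 0.223 in ADX, 0.383 and 0.313 in supplemented ADX, and, after acute corticosterone, 0.247 and 0.166 at 1 h and 0.145 and 0.178 at 3 h (log2 fold change 0.52 ± 0.47, adjusted p = 0.611).

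The count of 7 moved with single libraries and with the marker score of the dissection. It was 2 or 3 when high Cort replicate 1 or 2 was left out and 2 or 1 when ADX replicate 1 or 2 was, and Pdia4 kept its call in all 4 cases, while the genes called over the whole table fell from 742 to between 157 and 386. The thalamus marker score, the mean log2 CPM of those markers, was fitted beside 1 coefficient per group. Its slope thus came only from differences between libraries of the same group. These were largest in sham (6.05 and 6.65) and 1 h acute (5.54 and 4.72). The score also differed between high Cort (6.53 and 6.48) and ADX (5.79 and 5.94), so dissection and treatment cannot be fully told apart. With the thalamus marker score as a covariate 0 members were called (227 genes in all). The ER genes then kept their size, with log2 fold changes of -0.23 ± 0.06 for Pdia4 (adjusted p = 0.0689), -0.18 ± 0.05 for Hsp90b1 (0.0788), -0.23 ± 0.07 for Pdia6 (0.113), -0.17 ± 0.05 for Pdia3 (0.133) and -0.18 ± 0.06 for Hspa5 (0.16). Hsph1 came to 0.15 ± 0.05 (0.16) and Atf4 to 0.13 ± 0.06 (0.443). Markers of other cells moved in the same comparison. Of the 7 PVH genes 6 were lower in high Cort than in ADX. The 12 endothelial and mural markers summed to 633 to 656 CPM in high Cort, below every other library, and to 712 to 735 in ADX, and 5 of the 12 were called lower and 0 higher (Kdr, Cdh5, Cldn5, Itm2a and Rgs5). Of 10 astrocyte markers 2 were lower (Aqp4 and Gfap) and 2 higher (Aldh1l1 and Gjb6), with sums of 5676 to 5689.8 CPM in high Cort and 5975 to 6030.5 in ADX. The neuron marker Snap25, the oligodendrocyte marker Mobp and the macrophage marker Cd163 were higher. The oligodendrocyte marker Enpp6 and the tanycyte marker Nes were lower. The part of these cells in the ER and Hsph1 results was not tested. In bulk tissue, fewer cells of a type and less RNA per cell cannot be told apart.

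Set against sham, neither hormone state alone moved a member past the threshold. High Cort against sham gave 0 of 40 calls by edgeR's quasi-likelihood test and 0 by DESeq2, where edgeR called 0.871% of all genes. At an unadjusted p under 0.05 in edgeR were 7 of the 40 members and 1075 of all 12856 genes. ADX against sham gave 0 by edgeR and 0 by DESeq2, where edgeR called 0.233% of all genes. Here 7 members and 1647 of all 12856 genes had an unadjusted p under 0.05 in edgeR. These comparisons and the one above share their libraries, so their values are given side by side. Hsp90b1 stood -0.13 ± 0.04 from sham in high Cort and 0.05 ± 0.04 in ADX on the log2 scale (adjusted p = 0.16 and 0.594). Pdia4 stood -0.11 ± 0.05 and 0.13 ± 0.04 from sham (adjusted p = 0.451 and 0.253). Hspa5 stood -0.12 ± 0.05 and 0.10 ± 0.05 from sham (adjusted p = 0.445 and 0.394). For these 3 genes the sham libraries lay between the other groups without overlap. Hsph1 stood 0.09 ± 0.05 from sham in high Cort and -0.16 ± 0.05 in ADX (adjusted p = 0.674 and 0.178), and Atf4 0.05 ± 0.05 and -0.17 ± 0.05 (adjusted p = 0.9 and 0.201).

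Herpud1, which brings misfolded ER proteins to the degradation machinery, had the lowest p of the members in high Cort against sham. It stood at 56.3 and 54.6 CPM in sham, 67.2 and 64.0 in high Cort, 57.2 and 58.1 in ADX, 59.1 and 56.3 in supplemented ADX, and, after acute corticosterone, 58.8 and 65.1 at 1 h and 59.6 and 63.5 at 3 h. High Cort lay above both sham and ADX, and 1 h acute replicate 2 reached into its range. The difference from sham was 0.24 ± 0.06 on the log2 scale (adjusted p = 0.0768), and once the thalamus score entered as a covariate it was 0.26 ± 0.06 and passed (adjusted p = 0.0246), the 1 member to do so. Its partner in degradation, Sel1l, ranged only from 277 to 314 CPM (log2 fold change 0.01 ± 0.04, adjusted p = 0.992).

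Supplementing adrenalectomised rats with corticosterone left the 40 members without a call. Supplemented ADX against ADX gave 0 by edgeR's quasi-likelihood test and 0 by DESeq2, where edgeR called 0.0311% of all genes. At an unadjusted p under 0.05 in edgeR were 3 of the 40 members and 521 of all 12856 genes. On the log2 scale Pdia4 differed by 0.09 ± 0.04, Hspa5 by 0.03 ± 0.05 and Hsp90b1 by 0.02 ± 0.04, each with an adjusted p of 1. Hsph1 differed by 0.00 ± 0.05. This comparison crosses the 2 runs.

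After acute corticosterone, members of the cytosolic heat shock set and of the ER stress pathway differed from sham. In 1 h acute against sham, 4 members were higher (Dnajb1, Bag3, Ern1 and Manf) and 2 lower (Hsph1 and Atf4). In 3 h acute against sham, 3 were higher (Manf, Hsf1 and Hyou1) and 2 lower (Hsph1 and Hspa4). At 1 h the 6 calls made up 15% of the members, where 12.8% of all genes were called, 5.56% higher and 7.2% lower. At 3 h the 5 calls made up 12.5% of the members, where 7.98% of all genes were called, 3.41% higher and 4.57% lower. The share of members called at 1 h lay near that of all genes, and the medians over all members were 0.00 at 1 h and 0.03 at 3 h on the log2 scale. Both comparisons cross the 2 runs. Blood markers stood apart at 3 h: the 4 genes summed to 54.5 to 66.8 CPM there, 35.7 to 41.5 in sham and at most 39.1 in the other groups, and 2 of the 4 (Hbb and Hba2) were called higher than sham. Of the 7 PVH genes, 2 were higher than sham at 1 h and 5 at 3 h. The neuron markers Snap25, Stmn2, Tubb3 and Slc17a6 were lower than sham at 1 h and Slc32a1 was higher. At 3 h Snap25 and Slc17a6 were lower. Immediate early genes stood apart at 1 h: the 11 genes listed summed to 147 to 155 CPM there, 84.9 to 97.9 in sham and at most 104 in the other groups. At 3 h they summed to 82.2 to 86.4 CPM. The part of blood, of PVH cells, of neurons and of what raised the immediate early genes in these results was not tested. The labels gave no vehicle group.

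Dnajb1, a heat-inducible HSP40 that hands clients to HSP70, stood at 49.4 and 47.0 CPM in sham, 54.4 and 47.9 in high Cort, 54.6 and 45.2 in ADX, 46.6 and 49.4 in supplemented ADX, and, after acute corticosterone, 59.9 and 67.5 at 1 h and 53.2 and 50.8 at 3 h. Both 1 h libraries lay above the other 10, and the 3 h libraries lay among those of high Cort and ADX. The 1 h level was 1.32-fold that of sham (log2 fold change 0.40 ± 0.09, adjusted p = 0.0177). Bag3, the exchange factor that links HSP70 to autophagy, stood at 17.3 and 15.5 CPM in sham, 20.9 and 18.6 in high Cort, 17.9 and 16.4 in ADX, 17.4 and 16.9 in supplemented ADX, and, after acute corticosterone, 19.8 and 25.4 at 1 h and 18.8 and 22.3 at 3 h. The 1 h libraries overlapped with high Cort and 3 h acute but not with sham, ADX or supplemented ADX (1.36-fold above sham, log2 fold change 0.44 ± 0.12, adjusted p = 0.0293). At 3 h it did not pass (log2 fold change 0.33 ± 0.12, adjusted p = 0.108).

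Hsf1, which encodes the master transcription factor of the heat shock response, stood at 44.4 and 45.0 CPM in sham, 47.2 and 44.7 in high Cort, 47.0 and 48.7 in ADX, 47.3 and 44.7 in supplemented ADX, and, after acute corticosterone, 48.4 and 49.0 at 1 h and 55.5 and 51.0 at 3 h. Its 3 h libraries were the highest of the 12, 1.19-fold above sham (log2 fold change 0.25 ± 0.06, adjusted p = 0.0208), a call that 6 of 11 alternatives kept and none of the 4 fits without 1 library, and at 1 h it did not pass (log2 fold change 0.12 ± 0.06, adjusted p = 0.192). Hsf2, a related factor active in development, ranged from 39.9 to 43.5 CPM and passed in none of the 9 comparisons. Hspa4, an HSP110 like Hsph1, stood at 499 and 528 CPM in sham, 507 and 505 in high Cort, 477 and 480.5 in ADX, 468 and 496 in supplemented ADX, and, after acute corticosterone, 486 and 456 at 1 h and 463 and 458 at 3 h. Its 3 h libraries lay 1.11-fold below sham (log2 fold change -0.16 ± 0.04, adjusted p = 0.0456), a call that 1 of 11 alternatives kept. Hsph1, with the libraries given above, was 1.14-fold lower than sham at 1 h (log2 fold change -0.19 ± 0.05, adjusted p = 0.0199) and 1.12-fold lower at 3 h (log2 fold change -0.17 ± 0.05, adjusted p = 0.0411). The call at 1 h was kept by 8 of 11 alternatives and the call at 3 h by 2 of 11. ADX and supplemented ADX stood at the same low level of Hsph1 as the acute groups.

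Of the ER set, Ern1, the sensor whose endonuclease splices Xbp1, stood at 25.7 and 29.5 CPM in sham, 25.5 and 28.2 in high Cort, 31.1 and 32.0 in ADX, 31.9 and 31.6 in supplemented ADX, and, after acute corticosterone, 35.1 and 37.5 at 1 h and 33.3 and 32.2 at 3 h. The 1 h libraries were the highest of the 12 and sham and high Cort the lowest groups (1.31-fold above sham at 1 h, log2 fold change 0.39 ± 0.07, adjusted p = 0.00567). At 3 h it lay above sham without passing (log2 fold change 0.24 ± 0.08, adjusted p = 0.0611). Its target Xbp1 stood at 95.7 and 87.3 CPM in sham, 92.5 and 84.3 in high Cort, 101 and 90.6 in ADX, 94.0 and 94.2 in supplemented ADX, and, after acute corticosterone, 93.4 and 93.3 at 1 h and 100.3 and 102 at 3 h, and passed neither at 1 h (log2 fold change 0.03 ± 0.06, adjusted p = 0.798) nor at 3 h (log2 fold change 0.15 ± 0.06, adjusted p = 0.146). These gene-level counts do not tell spliced from unspliced Xbp1. Atf4 at 1 h was 1.21-fold lower than sham (log2 fold change -0.27 ± 0.06, adjusted p = 0.00775).

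Manf, a secreted ER stress protein that protects neurons, stood at 15.0 and 14.1 CPM in sham, 14.8 and 15.3 in high Cort, 15.1 and 15.1 in ADX, 17.1 and 16.8 in supplemented ADX, and, after acute corticosterone, 17.4 and 17.4 at 1 h and 20.2 and 18.2 at 3 h. All 6 libraries of the acute run lay above all 6 of the other run, and the 3 h libraries lay highest. Manf was 1.20-fold above sham at 1 h (log2 fold change 0.26 ± 0.08, adjusted p = 0.0435) and 1.32-fold above it at 3 h (log2 fold change 0.40 ± 0.08, adjusted p = 0.0112). Its call at 1 h was kept by 4 of 11 alternatives and its call at 3 h by 8 of 11. Hyou1, the HSP110 of the ER, stood at 349 and 357 CPM in sham, 357 and 353 in high Cort, 372 and 374 in ADX, 395 and 379.8 in supplemented ADX, and, after acute corticosterone, 376 and 383 at 1 h and 387 and 407 at 3 h. It too was higher in every library of the acute run than in every library of the other, and 1.12-fold above sham at 3 h (log2 fold change 0.17 ± 0.04, adjusted p = 0.0227). Within the acute run neither gene passed against supplemented ADX: Manf differed at 3 h by 0.18 ± 0.08 (adjusted p = 0.348) and Hyou1 by 0.04 ± 0.04 (adjusted p = 0.741).

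**Figure D3:**
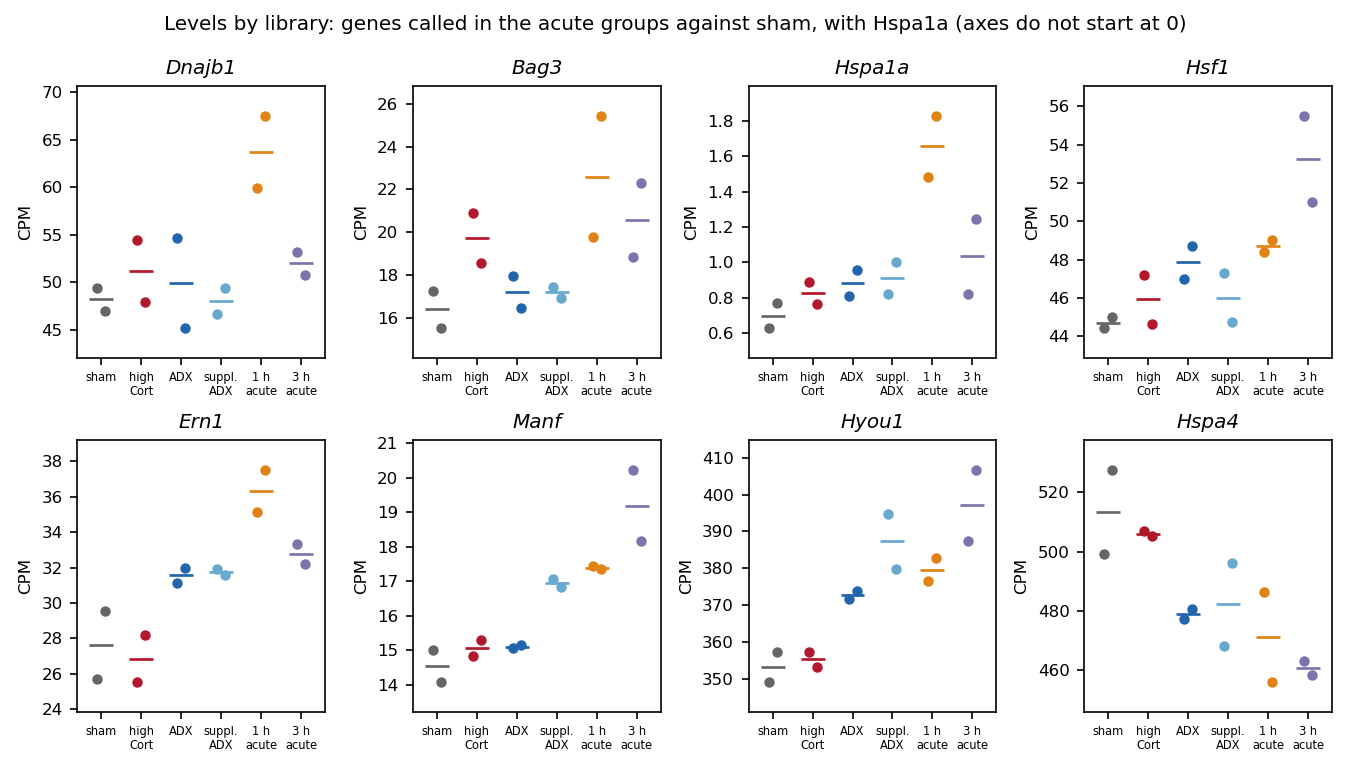
CPM of 8 genes in each of the 12 libraries (points) with the group mean (bar); axes do not start at 0. Dnajb1, Ern1 and Hspa1a are highest in the 1 h acute libraries, Hsf1 in the 3 h acute libraries, and Manf and Hyou1 are higher in supplemented ADX, 1 h acute and 3 h acute than in sham, high Cort and ADX.

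Within the acute run, against supplemented ADX, no member passed in edgeR's quasi-likelihood test. At 1 h this was 0 of 40, where edgeR called 0.0467% of all genes. At an unadjusted p under 0.05 in edgeR were 8 of the 40 members and 1891 of all 12856 genes. DESeq2 called 1 member (Dnajb1), and its share over all genes is not given here. At 3 h it was 0 by edgeR and 0 by DESeq2, where edgeR called 0.00778% of all genes. Here 6 members and 1612 of all 12856 genes had an unadjusted p under 0.05 in edgeR. In 3 h acute against 1 h acute it was 0 by edgeR and 0 by DESeq2, where edgeR called 0.0233% of all genes. Here 4 members and 1366 of all 12856 genes had an unadjusted p under 0.05 in edgeR. Dnajb1 stood 0.40 ± 0.09 above supplemented ADX at 1 h on the log2 scale (adjusted p = 0.126), as far as above sham, and 0.12 ± 0.09 at 3 h (adjusted p = 0.638). Its change from 1 h to 3 h was -0.29 ± 0.09 (adjusted p = 0.31). Bag3 stood 0.37 ± 0.12 above supplemented ADX at 1 h (adjusted p = 0.194), and Hsf1 0.21 ± 0.06 above it at 3 h (adjusted p = 0.212). Without 1 h acute replicate 1, the 1 h comparison called 4 members: Bag3 and Dnajb1 higher, and Cryab, a small heat shock protein, and the sensor gene Eif2ak3 lower. That fit rests on 1 h acute replicate 2, the shallowest library and the one with the least thalamus signal, and it called 624 genes in all.

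The calls against sham moved with single libraries and with the thalamus markers, of which 9 of 12 were lower at 1 h and 1 of 12 at 3 h. The 1 h count was 6 without sham replicate 1, 1 without sham replicate 2, 10 without 1 h acute replicate 1 and 1 without 1 h acute replicate 2, and Ern1 kept its call in all 4 cases. At 3 h the count was 2 without sham replicate 1, 0 without sham replicate 2, 1 without 3 h acute replicate 1 and 1 without 3 h acute replicate 2. The slope of the thalamus score rested mainly on the library pairs of sham and 1 h acute, as given above, and 1 h acute replicate 2 was the shallowest library. The score also differed between the groups compared, so dissection and treatment cannot be fully told apart. With the thalamus score as a covariate 0 members were called at either time, among 3 genes called in all at 1 h and 4 at 3 h. The log2 fold change of Ern1 at 1 h was then 0.42 ± 0.14 (adjusted p = 0.997), of Manf at 3 h 0.34 ± 0.13 (0.685), of Hsf1 at 3 h 0.25 ± 0.10 (0.702) and of Hyou1 at 3 h 0.18 ± 0.06 (0.613). At 1 h, Dnajb1 came to 0.14 ± 0.15, Bag3 to 0.03 ± 0.18, Atf4 to -0.10 ± 0.09 and Hsph1 to -0.01 ± 0.07. At 3 h, Hsph1 came to -0.03 ± 0.06 and Hspa4 to -0.05 ± 0.06.

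**Figure D4:**
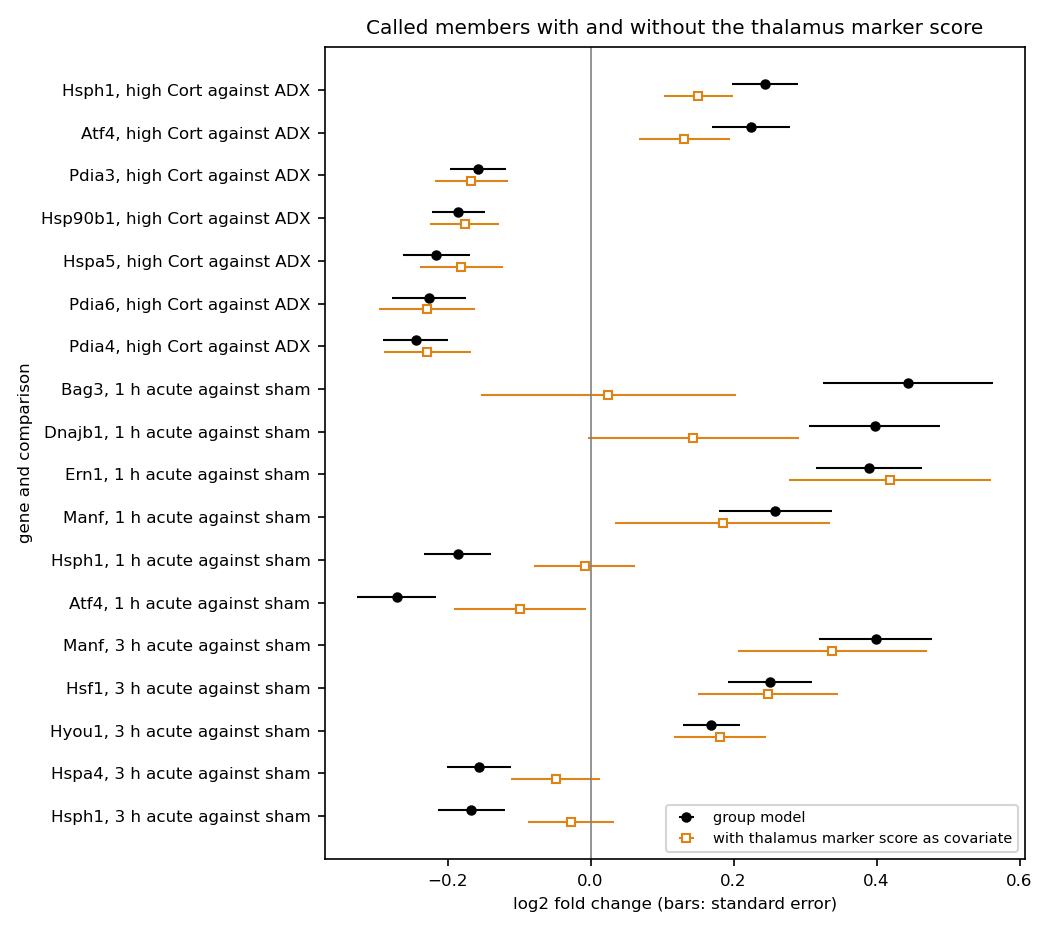
Log2 fold change (x axis, bars are standard errors) of each called gene and comparison, in the model of the groups (filled circles) and with the thalamus marker score as a covariate (open squares). The slope of that covariate rests mainly on the library pairs of sham and 1 h acute. The ER genes lowered in high Cort against ADX, Ern1 at 1 h and Manf, Hsf1 and Hyou1 at 3 h keep similar values in both models, while Dnajb1, Bag3, Hsph1, Atf4 and Hspa4 in the acute groups, and Hsph1 and Atf4 in high Cort against ADX, move towards 0, as does Manf at 1 h (from 0.26 ± 0.08 to 0.18 ± 0.15).

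The most abundant cytosolic chaperones passed in no comparison. Hsp90ab1, the constitutive HSP90, stood at 2248 and 2223 CPM in sham, 2222 and 2205 in high Cort, 2258 and 2256 in ADX, 2257 and 2298 in supplemented ADX, and, after acute corticosterone, 2303 and 2314 at 1 h and 2283 and 2296 at 3 h, with a coefficient of variation of 1.57%, the lowest of the 40. Hsp90aa1, its inducible partner, stood at 1503 and 1489 CPM in sham, 1437 and 1487 in high Cort, 1466 and 1498 in ADX, 1433 and 1522 in supplemented ADX, and, after acute corticosterone, 1449.7 and 1380.5 at 1 h and 1428 and 1414 at 3 h. The 1 h acute and 3 h acute libraries lay below both sham libraries, without a call (log2 fold change -0.08 ± 0.04, adjusted p = 0.235 at 1 h). Hspa8 stood at 511 and 505 CPM in sham, 511 and 508 in high Cort, 491 and 480.3 in ADX, 486 and 493 in supplemented ADX, and, after acute corticosterone, 496 and 491 at 1 h and 493 and 479 at 3 h. Sham and high Cort held the 4 highest libraries, with no call for high Cort against ADX (log2 fold change 0.07 ± 0.04, adjusted p = 0.32).

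The other cytosolic members varied to different degrees, from a coefficient of variation of 2.46% for Hsf2 and 2.70% for Hspd1 to 7.70% for Hspe1, 8.89% for Dnajb5, 12.3% for Cryab and 24.3% for Hspb1. The HSP90 cofactors Stip1, which couples HSP70 to HSP90, and Chordc1 ranged from 255 to 276 and from 69.6 to 79.6 CPM. Among the HSP40 genes, Dnaja1 ranged from 325 to 365, Dnajb4 from 43.7 to 51.0 and Dnajb5 from 46.7 to 63.8 CPM. Dnajb5 had its 3 highest libraries in high Cort and sham (log2 fold change 0.26 ± 0.07, adjusted p = 0.0608 in high Cort against ADX). The mitochondrial chaperonin Hspd1 (HSP60) ranged from 242 to 266 CPM and its lid Hspe1 (HSP10) from 17.0 to 23.0 CPM. Of the small heat shock proteins, Cryab ranged from 9.20 to 14.3 CPM, lowest in 1 h acute replicate 2, and Hspb1 from 0.865 to 1.83 CPM, at 17 to 49 fragments a library. At this depth Hspb1 and Trib3 could show only large differences.

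Among the remaining ER members, the J-domain partners of BiP varied little: Dnajb9 from 51.3 to 58.0, Dnajb11 from 50.1 to 54.9 and Dnajc3 from 25.9 to 31.9 CPM. Sdf2l1, a component of the BiP complex, ranged from 4.09 to 6.32 CPM, with its lowest library in high Cort. Atf6 ranged from 71.3 to 87.3 CPM. Eif2ak3 ranged more widely, from 43.8 in 1 h acute replicate 2 to 73.6 CPM in sham replicate 2, the libraries that also had the lowest and highest thalamus scores; its difference from sham at 1 h did not pass in edgeR's quasi-likelihood test of all libraries (log2 fold change -0.39 ± 0.12, adjusted p = 0.0696). It passed as lower in DESeq2 (adjusted p = 0.00467) and in edgeR without sham replicate 1 (adjusted p = 0.0231) or without 1 h acute replicate 1 (adjusted p = 0.00181). With the thalamus score as a covariate the difference was 0.13 ± 0.11 (adjusted p = 0.997), of the opposite sign.

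Other genes of protein folding and ER stress, from lists made apart from the 40, were called at total shares near or below that of all genes in the 3 comparisons with most calls. In high Cort against ADX 6.15% of the tested chaperone list and 5.56% of the tested ER list were called, against 5.77% of all genes. By direction, the chaperone list gave 3 higher and 1 lower of 65, and the ER list 1 higher and 4 lower of 90. Over all genes, 3.5% were called higher and 2.27% lower. In 1 h acute against sham the shares were 9.23% and 4.44%, against 12.8%, and in 3 h acute against sham 7.69% and 1.11%, against 7.98%. Of 65 tested cytosolic and mitochondrial chaperone genes, of 74 listed, 1 was higher in high Cort against sham, 3 higher and 1 lower in high Cort against ADX, 2 higher and 4 lower in 1 h acute against sham, and 3 higher and 2 lower in 3 h acute against sham. Of 90 tested ER and integrated stress response genes, of 99 listed, 1 was lower in high Cort against sham, 1 higher in ADX against sham, 1 higher and 4 lower in high Cort against ADX, 1 lower in supplemented ADX against ADX, 2 higher and 2 lower in 1 h acute against sham, and 1 lower in 3 h acute against sham. In the 3 comparisons within the acute run both lists gave 0 calls.

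Serpinh1 (HSP47), the ER chaperone of collagen, placed in the chaperone list, stood at 49.9 and 47.5 CPM in sham, 43.0 and 40.5 in high Cort, 60.1 and 58.4 in ADX, 58.3 and 56.1 in supplemented ADX, and, after acute corticosterone, 57.5 and 64.6 at 1 h and 62.0 and 58.6 at 3 h. High Cort was the lowest group, as for Pdia4 and Hsp90b1, and lay -0.51 ± 0.06 on the log2 scale from ADX (adjusted p = 0.000273), while 1 h acute and 3 h acute lay 0.32 ± 0.06 and 0.31 ± 0.06 above sham (adjusted p = 0.00619 and 0.0117). Slc7a11, the cystine transporter regulated by ATF4, stood at 149 and 145 CPM in sham, 118 and 112 in high Cort, 199 and 185 in ADX, 142 and 139 in supplemented ADX, and, after acute corticosterone, 151 and 162 at 1 h and 128 and 147 at 3 h. ADX was the highest group and high Cort the lowest (log2 fold change -0.74 ± 0.06, adjusted p = 1.27e-05), and supplemented ADX lay below ADX (log2 fold change -0.45 ± 0.06, adjusted p = 0.0149). Atf4 itself was higher in high Cort than in ADX, as was Psat1 of the same list as Slc7a11 (log2 fold change 0.20 ± 0.06, adjusted p = 0.0442). Asns, also of that list, was lower than sham at 1 h, where Atf4 was lower too (log2 fold change -0.27 ± 0.07, adjusted p = 0.0164). In both comparisons other genes of the list were called the opposite way. Fkbp5, the HSP90 co-chaperone that lowers the hormone affinity of the glucocorticoid receptor, was higher in high Cort than in ADX (log2 fold change 0.63 ± 0.09, adjusted p = 0.000618), and Sec24d, a coat protein of vesicles leaving the ER, was lower (log2 fold change -0.24 ± 0.06, adjusted p = 0.0307).

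In the acute groups, Hspa4l, an HSP110 relative of Hsph1 and Hspa4, was lower than sham at 1 h (log2 fold change -0.20 ± 0.04, adjusted p = 0.0117) and at 3 h (log2 fold change -0.27 ± 0.04, adjusted p = 0.00554), as was Dnajc6, the auxilin that uncoats synaptic vesicles (log2 fold change -0.25 ± 0.05, adjusted p = 0.0079 at 1 h and -0.22 ± 0.05, adjusted p = 0.019 at 3 h). Pfdn2, a subunit of prefoldin, was higher at 3 h (log2 fold change 0.26 ± 0.06, adjusted p = 0.0263). Hspa1a, the heat-inducible HSP70, stood at 0.627 and 0.768 CPM in sham, 0.890 and 0.765 in high Cort, 0.806 and 0.955 in ADX, 0.821 and 1.00 in supplemented ADX, and, after acute corticosterone, 1.48 and 1.83 at 1 h and 0.819 and 1.25 at 3 h. Both 1 h libraries were above the other 10, and 1 h lay above sham (log2 fold change 1.21 ± 0.29, adjusted p = 0.0157) but did not pass against supplemented ADX (log2 fold change 0.84 ± 0.26, adjusted p = 0.188). Its near-identical copy Hspa1b, named after its values were seen, stood at 17.9 and 13.8 CPM in sham, 19.8 and 15.2 in high Cort, 22.2 and 16.1 in ADX, 19.1 and 18.1 in supplemented ADX, and, after acute corticosterone, 25.2 and 47.1 at 1 h and 23.8 and 25.2 at 3 h, with 1 h acute replicate 2 far above the rest (log2 fold change 1.15 ± 0.33, adjusted p = 0.0706). The sources used here do not give how the authors' counting split fragments between the copies, and both values are uncertain.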

How the data were processed

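Per the submitters' processing notes, the authors used CASAVA 1.8.2, TopHat2 2.1.1, Cufflinks 2.2.1 and rat build rn6; the sources used here do not name the gene annotation or the options. The deposited raw fragments are the authors' expected counts per gene, per the file headers of Cuffdiff read group tables; 0.751% of values were not whole and were rounded to whole numbers. The deposited FPKM values were taken as scaled by the authors within each of the 2 inferred Cuffdiff runs. They served only to compare levels between genes within a run.

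Counts were fitted with edgeR 4.0.16 in R 4.3.3: genes kept by filterByExpr (minimum count 10), TMM scaling, and a single robust quasi-likelihood fit of all 12 libraries, with 1 coefficient for each of the 6 groups (6 residual degrees of freedom). Tests were 2-sided with Benjamini-Hochberg adjustment over all 12856 genes, and calls were made at an adjusted p under 0.05. Fold changes are on the log2 scale ± SE; CPM values use TMM-scaled library sizes. The fit was tested on simulated counts. Alternatives covered RLE size factors, no filter, a stricter filter (4 libraries with 1 CPM or more), DESeq2 1.42.0, a replicate block, the thalamus score (mean log2 CPM of its markers) as a covariate, and leaving out each library; library totals without TMM were added after the data were seen.

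The 40 members and all gene lists were chosen with earlier results of these data known. The rule for named genes gave values in every library to members called in at least 1 of the 9 comparisons and to 11 reference genes, and named up to 4 called genes of smallest p a comparison from the other lists. Herpud1, Psat1, Asns, and values in libraries for genes of the other lists, were added after values were seen. Promoter windows are RefSeq sequences of build GRCr8, not the build of the files, and were used only as sequence.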

Additional observations from a re-analysis of the deposited data

How the results depend on the processing

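None of the 18 called changes of members reversed its direction in any of its 11 alternatives, and Pdia4 in high Cort against ADX and Ern1 in 1 h acute against sham kept their calls in 10 of 11. Library totals in place of TMM shifted the log2 fold changes of high Cort against ADX by a median of -0.05 over all genes. Atf4 then lost its call. Canx (-0.13, adjusted p = 0.0396) and Ern1 (-0.28, adjusted p = 0.031) were called lower by edgeR's quasi-likelihood test. With the thalamus score as a covariate the members called were 1 in high Cort against sham, 0 in high Cort against ADX, 0 in 1 h acute against sham, 0 in 3 h acute against sham and 1 for any difference (Pdia4). In 3 h acute against sham RLE size factors, no filter, the stricter filter and the replicate block each gave 3 members in place of 5, and in 1 h acute against supplemented ADX DESeq2 gave 1 in place of 0. Leaving out 1 library at a time gave 1 to 3 members in high Cort against ADX, 1 to 10 in 1 h acute against sham, 0 to 2 in 3 h acute against sham, 0 to 4 in 1 h acute against supplemented ADX and 4 to 17 for any difference; each such fit has fewer libraries, and the cause of these moves was not tested. In the other comparisons every alternative gave 0 members, and DESeq2 left up to 8 members of a comparison without an adjusted p.

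The labels tie no replicate number to an animal or day, and same-numbered libraries deviated from their group means with correlations of -0.19 to 0.10 over 15 pairs of groups, 5 of them above 0. With the replicate block as paired analysis, 6 members were called in high Cort against ADX, 5 in 1 h acute against sham, 3 in 3 h acute against sham and 7 for any difference. Depth limited Trib3, at 3 to 14 fragments a library, and Hspb1, at 17 to 49.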
